A study of Mus musculus with 6 samples.

Results

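The gamma-crystallins are a family of small structural proteins of the eye lens, and 8 mouse genes encode them: Cryga, Crygb, Crygc, Crygd, Cryge and Crygf, which are near copies of each other, and the more distant Crygs and Crygn. Their transcripts were followed on every array probe whose RefSeq accession belongs to 1 of these genes, which gave 11 probes for 8 genes out of 20659 named genes. All 8 were among the 12785 genes bright enough to be tested. The arrays came from lenses of mice aged 3 months in 2 genotypes. The knock-in group carried the W151C allele, in which codon 151 of the βB2-crystallin gene Crybb2 was edited with CRISPR/Cas9 so that cysteine replaces tryptophan, and the other group was wild type. Each group had 3 single-colour Cy3 arrays, labelled replicates 1, 2 and 4 for the knock-in and 1, 2 and 3 for the wild type. Strain, zygosity, the number of founder lines and the number of animals behind an array are not stated in the labels. The comparison asks how lens transcripts differ when βB2-crystallin carries this substitution.

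Crystallins fill the cytoplasm of lens fibre cells, the long cells that make up most of the lens, and their dense, ordered packing gives the lens its transparency and refractive power. The gamma-crystallins are monomers built from paired Greek key domains, whereas the beta-crystallins, βB2 among them, share the fold and form dimers and larger oligomers, and the alpha-crystallins are chaperones of the small heat shock family. Cryga to Crygf are transcribed mainly in differentiating fibre cells of the embryonic and young lens, which places their products in the lens core. Crygs continues to be made in the fibre cells of the adult outer layers, and Crygn, an old branch of the family, is also transcribed in the retina. Mutations in several gamma-crystallin genes cause inherited cataract in mice and people. Whole lenses were measured here, so fewer cells of a type and less RNA per cell cannot be told apart in any value below.

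The promoters of the 8 genes were set side by side. RefSeq (GRCm38.p6) held a promoter for 8 of the 8 genes. Cryga to Cryge lie side by side on the minus strand of chromosome 1, and Crygf lies on its plus strand farther along, while Crygs is on chromosome 16 and Crygn on chromosome 5. Over the 250 bases before the transcription start, the 6 genes Cryga to Crygf shared 52.1% to 80.7% of their bases in pairwise alignment, with Cryge and Crygf the closest pair. Pairs of these 6 with Crygs or Crygn shared 45.5% to 51.9%. Over the 100 bases nearest the start the ranges overlapped, at 51.2% to 88.3% among the 6 and 47.1% to 56.4% with Crygs or Crygn, and the closest pair was Crygd and Crygf, with Cryge and Crygf at 71.1%. Words of at least 6 bases that all 6 promoters held on the sense strand came down to TTTGTG and TATATA, set in capitals in the 110 bases before the start of Crygb, the member that passed the test below, of Cryge and Crygf, the closest pair over the longer window, and of Crygs and Crygn for contrast.
Crygb, chr1:65082291-65082400, minus strand: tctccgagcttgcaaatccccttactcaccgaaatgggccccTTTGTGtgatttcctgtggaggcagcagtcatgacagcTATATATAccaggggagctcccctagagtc
Cryge, chr1:65051164-65051273, minus strand: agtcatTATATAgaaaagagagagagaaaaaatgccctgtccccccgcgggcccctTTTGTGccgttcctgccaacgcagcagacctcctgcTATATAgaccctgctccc
Crygf, chr1:65926412-65926521, plus strand: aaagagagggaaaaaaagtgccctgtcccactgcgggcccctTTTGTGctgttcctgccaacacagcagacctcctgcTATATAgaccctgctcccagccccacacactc
Crygs, chr16:22811411-22811520, minus strand: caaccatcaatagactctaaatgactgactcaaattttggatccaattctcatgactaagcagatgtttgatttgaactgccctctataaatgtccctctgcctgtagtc
Crygn, chr5:24757849-24757958, minus strand: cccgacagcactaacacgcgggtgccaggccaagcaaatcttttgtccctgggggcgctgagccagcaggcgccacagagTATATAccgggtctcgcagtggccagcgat

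Counted from the start, TTTGTG began between -77 and -54 in the 6 genes and was in neither Crygs nor Crygn. On either strand, 15.6% of 32851 RefSeq promoters of the same length held it. TATATA, which reads the same on both strands, was also in the Crygn promoter and was in 5.25% of promoters. Its copies nearest the start began between -37 and -18 in the 6 genes and at -30 in Crygn. In Cryga and Crygb it overlapped a second copy of itself. The more usual TATA word TATAAA was found only in Crygs, at -25, and in 12.4% of all promoters. Of the words searched for known lens regulators on both strands, TGCTGAC, a Maf recognition word, was only in Cryga (3.81% of promoters). AGGTCA, a retinoid receptor word, was in Cryga, Crygf and Crygn (14% of promoters). Of the Sox words, AACAAT was in Crygd and Crygs (9.42%) and AACAAAG in none of the 8 (5.03%). These are matches of letters within this window and nothing more.

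Wild type array 3 stood apart from the other 5, and this bears on every member. Its 75th percentile of spot signal was 698, against 120 to 201 on the others. File headers give 1 scan time to the 3 knock-in arrays, another on the same day to wild type arrays 1 and 2, and the remaining time, on a different day, to wild type array 3. No scan held both genotypes, so scan and genotype cannot be told apart, and values are therefore also given within the shared scan day and with scan as a random block. The share of spots well above background ranged from 45.5% to 58.4%, and none was saturated. All 11 member probes were well above background on all 6 arrays, carried no outlier mark and had 1 spot each, with a scanner software error of 10% to 10.1%. The number of arrays limits the precision. Because Cryga to Crygf are so alike, their probes may also pick up each other's transcripts, so differences between these 6 genes are uncertain.

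Before any scaling between arrays, the probes of the 6 near copies were several times dimmer on the knock-in arrays, apart from 1 Crygf probe on wild type array 3. The Crygb probe gave 15623, 17530 and 16596 scanner units on knock-in arrays 1, 2 and 4, and 83955, 82088 and 144240 on wild type arrays 1, 2 and 3. Cryga, which encodes γA-crystallin, gave 17429, 21216 and 18205 on the knock-in arrays and 81427, 75129 and 92695 on the wild type arrays. For Cryge the knock-in signals were 14191, 18235 and 15713, and the wild type signals 70252, 71826 and 79938. In all 3 genes each knock-in array lay far below each wild type array, wild type array 3 included. As a ratio of geometric means, wild type exceeded knock-in 6.02-fold for Crygb, 4.38-fold for Cryga and 4.63-fold for Cryge. Crygd, whose human counterpart is a frequent site of inherited cataract mutations, gave 32052 to 37250 on knock-in arrays and 103720 to 127389 on wild type arrays, a ratio of 3.27. The brightest of the 3 Crygc probes gave 31198 to 33316 and 105722 to 126337, a ratio of 3.58.

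Of the 2 members outside the near copies, Crygs was lower on the knock-in arrays by a smaller ratio and Crygn overlapped. Crygs gave 60138, 67894 and 63567 on the knock-in arrays and 100746, 105814 and 158346 on the wild type arrays, a 1.87-fold excess in wild type with no overlap. Crygn gave 1709, 1863 and 1551 on the knock-in arrays and 952, 832 and 2820 on the wild type arrays. Its groups overlapped, since wild type array 3 was above the knock-in arrays and the other wild type arrays below them. Over the family, 9 of the 11 probes were lower on every knock-in array than on any wild type array, as were 18.4% of all 21076 probes kept. The exceptions were Crygn and the dimmer Crygf probe. In the limma fit of unscaled signals none of the 8 genes passed an adjusted p of 0.05, where 1.14% of all genes passed in the lower direction. The nearest were Crygb, with a log2 difference of -2.59 (SE 0.83, adjusted p = 0.0698), and Crygf at -2.55 (adjusted p = 0.0784). All 8 genes had this same SE, because the spread was pooled over genes. The p-values of that fit thus do not measure each gene's own spread. At an unadjusted p below 0.05, 6 of the 8 were lower in that fit. The share of all genes at that level was not counted, here or for the unadjusted counts further below.

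**Figure D1:**
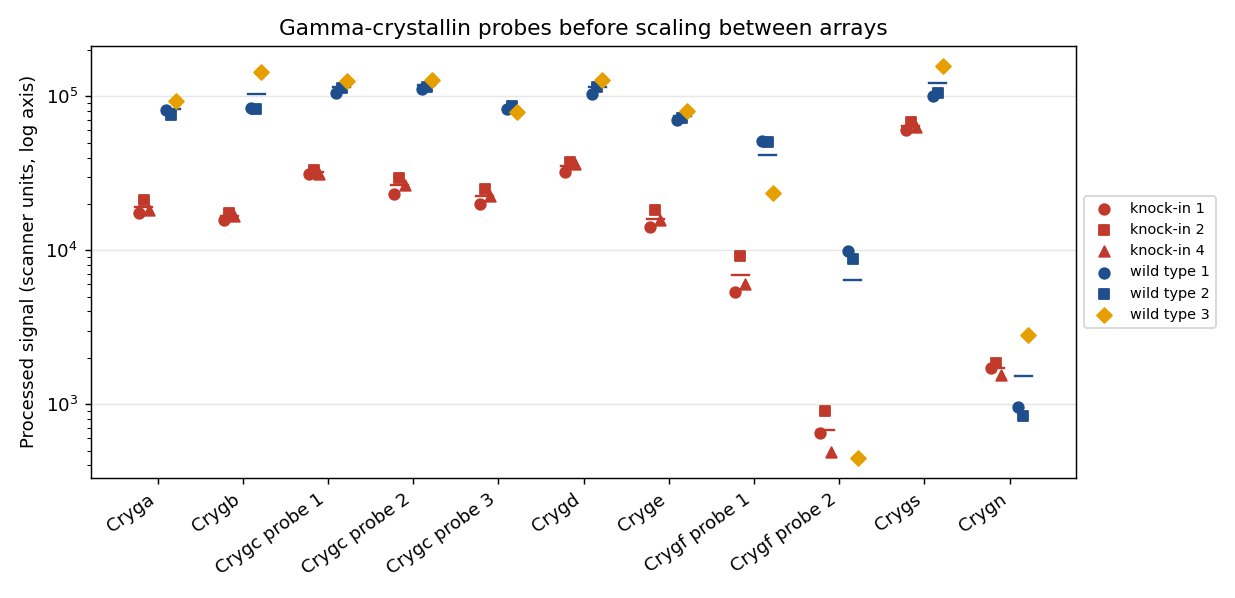
Processed signal of each gamma-crystallin probe on each array before scaling (log axis, scanner units), with knock-in arrays in red, wild type arrays 1 and 2 in blue, wild type array 3 in orange and a bar at each group mean. The 3 wild type points sit above the 3 knock-in points for 9 of the 11 probes, the exceptions being Crygf probe 2 and Crygn.

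Each probe's place in the brightness order of its own array moved too. This rank is untouched by a change that multiplies all spots alike. It does move where some probes brighten more than others, as on wild type array 3. The representative probes of Cryga to Crygf ranked between 5 and 56 on wild type array 1 and between 5 and 50 on wild type array 2, where 1 is the brightest. On the knock-in arrays the same probes ranked between 91 and 1189. On wild type array 3 they ranked between 25, for Crygb, and 1156, for Crygf, so on that array all 6 stood farther down than on the other wild type arrays, 5 of them still farther up than on any knock-in array and Crygf within the knock-in range. Crygs stayed between 8 and 16 on all 6 arrays. The brightest signal on wild type array 3 was 190397, while its overall signal was raised far more than that of the crystallins. Its 75th percentile was 2.42 higher on the log2 scale than the mean of wild type arrays 1 and 2, but Cryga to Crygf differed between them by -1.10 to 0.80 and Crygs by 0.62.

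Scaling each array to its 75th percentile therefore lowered the gamma-crystallins of wild type array 3. Scaled Crygb, as log2 signal minus the percentile, was 6.54, 6.45 and 6.46 on the knock-in arrays and 9.21, 9.42 and 7.69 on the wild type arrays. Cryga was 6.70, 6.72 and 6.60 against 9.16, 9.29 and 7.05, and Cryge was 6.41, 6.50 and 6.38 against 8.95, 9.22 and 6.84. These 3 genes still had every knock-in array below every wild type array, as had 23.1% of all genes. Crygc was 7.56, 7.37 and 7.37 against 9.54, 9.87 and 7.50, Crygd was 7.58, 7.53 and 7.58 against 9.51, 9.90 and 7.51, and Crygf was 5.0, 5.52 and 5.0 against 8.48, 8.71 and 5.08. In these last 3 genes wild type array 3 lay within or below the knock-in values, and the groups overlapped. Crygs was 8.49, 8.40 and 8.40 against 9.47, 9.78 and 7.82, with wild type array 3 the lowest of all. Only Crygn was higher on every knock-in array, at 3.35, 3.21 and 3.04 against 2.74, 2.79 and 2.01, as were 22.7% of all genes. The knock-in arrays were close to each other, with an SD of 0.03 to 0.30 for Cryga to Crygf against 0.94 to 2.03 among the wild type arrays.

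**Figure D2:**
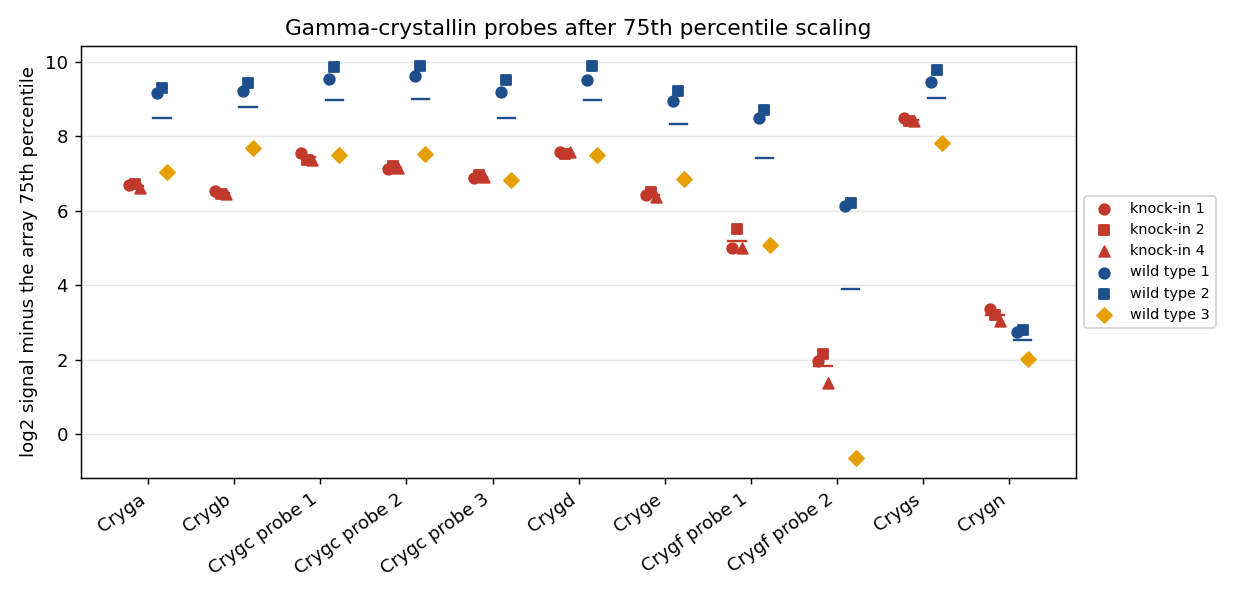
The same probes as log2 signal minus the 75th percentile of the array, with 1 point per array and a bar at each group mean. Wild type arrays 1 and 2 lie above the knock-in arrays for every probe except Crygn, and wild type array 3 lies close to the knock-in arrays for most probes and below all 3 of them for Crygc probe 3, Crygd, Crygf probe 2, Crygs and Crygn.

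Of the 8 genes, Crygb passed the limma test of the scaled values across all 12785 genes, and it fell by 2.29 on the log2 scale in the knock-in (SE 0.43, 95% interval -3.31 to -1.27, adjusted p = 0.0103), a 4.88-fold lower level. The count of 1 in 8 stands beside 12.6% of all genes that passed in this direction and 25.9% in either. Cryge differed by -1.91 (SE 0.58, adjusted p = 0.0517) and Cryga by -1.83 (SE 0.56, adjusted p = 0.0528). Crygf was at -2.25 with the widest error of the family (SE 0.90, adjusted p = 0.111). Crygc at -1.54 (adjusted p = 0.0933) and Crygd at -1.41 (adjusted p = 0.115) were nearer to 0, with 95% intervals of -2.90 to -0.17 and -2.76 to -0.05. The means of all 6 near copies were thus lower in the knock-in, with a median difference of -1.87, against -0.04 over all genes tested. Crygs differed by -0.60 (95% interval -1.72 to 0.53, adjusted p = 0.394) and Crygn by 0.69 (95% interval 0.11 to 1.26, adjusted p = 0.0803), neither past the threshold. With arrays scaled to their median instead, all 6 near copies passed, with adjusted p from 1.4e-05 for Crygb to 0.0076 for Crygd, beside 12.9% of all genes.

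How many members passed depended on wild type array 3 and on how the scans were treated. Within the shared scan day, with wild type array 3 left out, 7 of the 8 genes passed in the lower direction, as did 24.4% of all genes. The differences were then -2.83 for Crygb (adjusted p = 0.000149), -2.55 for Cryga (adjusted p = 0.00017), -2.66 for Cryge (adjusted p = 0.000205) and -3.42 for Crygf (adjusted p = 0.000292). Crygc was at -2.27, Crygd at -2.14 and Crygs at -1.20 (adjusted p = 0.00217), while Crygn at 0.43 (adjusted p = 0.0541) did not pass. With scan as a random block, none of the 8 passed, as against 2.02% of all genes in this direction, and 3 of the 8 were lower at an unadjusted p below 0.05. Crygb was then at -2.12 (adjusted p = 0.0748). Leaving out any other array kept the Crygb call, with adjusted p between 0.0273 and 0.044, and left the other 7 genes short of the threshold.

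**Figure D3:**
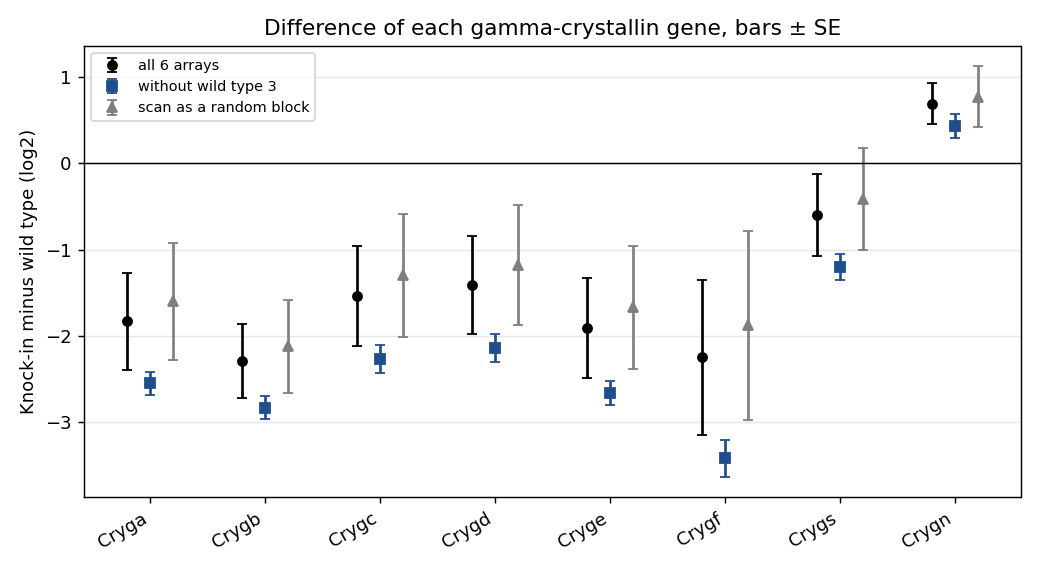
Knock-in minus wild type difference of each gene in log2 units (points, bars ± SE) over all 6 arrays, without wild type array 3, and with scan as a random block. Cryga to Crygf lie below 0 in all 3 fits, Crygs between -1.20 and -0.41 and Crygn above 0.

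The genes with several probes showed how far the readout depends on the probe. Crygc had 3 probes with scaled differences of -1.54, -1.86 and -1.59 (SE 0.58, 0.58 and 0.65). The Crygc probe at -1.86 kept all knock-in arrays, at 7.12, 7.19 and 7.14, below all wild type arrays, at 9.61, 9.90 and 7.52. Its adjusted p in the fit by probe was 0.0565, and in that fit Crygb was the only 1 of 11 member probes past the threshold (adjusted p = 0.0115), beside 12.8% of all probes. By separation on scaled values, 4 of 11 probes were lower on every knock-in array, beside 24.1% of all probes.

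The 2 Crygf probes did not track each other on wild type array 3. Crygf encodes γF-crystallin, 1 of the closest copies of γE-crystallin. Its brighter probe gave 5361, 9205 and 6037 on the knock-in arrays and 50913, 50190 and 23584 on the wild type arrays, and its dimmer probe gave 648, 897 and 491 against 9859, 8830 and 446. On wild type arrays 1 and 2 the dimmer probe was 14.2 times the knock-in mean, and on wild type array 3 it was 0.677 times that mean and the lowest of the 6. The signal of the brighter over the dimmer probe was 8.27, 10.3 and 12.3 on the knock-in arrays and 5.16, 5.68 and 52.9 on the wild type arrays. Both probes carry the same accession, and what sets them apart on that array was not tested. By the dimmer probe Crygf differed by -2.06 (SE 1.71, adjusted p = 0.413).

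Expressing each gene relative to Crygs on the same array removes the scaling between arrays. The values show unequal change of the near copies and Crygs, and do not show which of them moved. Crygb relative to Crygs was -1.94, -1.95 and -1.94 (log2) on the knock-in arrays and -0.26, -0.37 and -0.13 on the wild type arrays, a difference of -1.69, or 3.23-fold lower. Crygf relative to Crygs was -3.49, -2.88 and -3.40 against -0.98, -1.08 and -2.75, a difference of -1.65. Cryge differed by -1.31, Cryga by -1.23, Crygc by -0.94 and Crygd by -0.81. All 6 near copies were lower on every knock-in array than on any wild type array by this measure, as were 5.24% of the 12784 genes compared. For each of the 6, the two-sided exact permutation test gave p = 0.1 (0.1 after Benjamini-Hochberg adjustment over the 6), which is the smallest that 3 arrays against 3 allow. In a limma fit of all genes centred on Crygs, none of the 6 passed. Adjusted p ran from 0.118 for Crygb to 0.507 for Crygd, and 4 of the 6 were lower at an unadjusted p below 0.05. The SE was 0.57 for each of Cryga to Cryge and 0.62 for Crygf. Their SDs ran from 0.01 to 0.33 among knock-in arrays and from 0.12 to 0.99 among wild type arrays. limma pools the spread over genes, so these p-values do not measure the spread of each ratio alone. That centring was chosen after the data were seen, and 0.72% of all genes passed in this direction.

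Averaged over Cryga to Crygf, the value relative to Crygs was -1.86, -1.72 and -1.83 on the knock-in arrays. On the wild type arrays it was -0.33, -0.38 and -0.88. The knock-in minus wild type difference was -1.27, and -1.45 without wild type array 3. Wild type array 3, which overlapped the knock-in arrays in several scaled values, was thus on the wild type side here, although lower than the other wild type arrays in all but Crygb. Crygn relative to Crygs went the other way, at -5.14, -5.19 and -5.36 against -6.73, -6.99 and -5.81, a difference of 1.28 (exact permutation p = 0.1, two-sided). The median difference over all genes relative to Crygs was 0.56. Set against Crygn, Cryga to Crygf differed by -2.97 to -2.09 and Crygs by -1.28, each with the same smallest possible p.

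**Figure D4:**
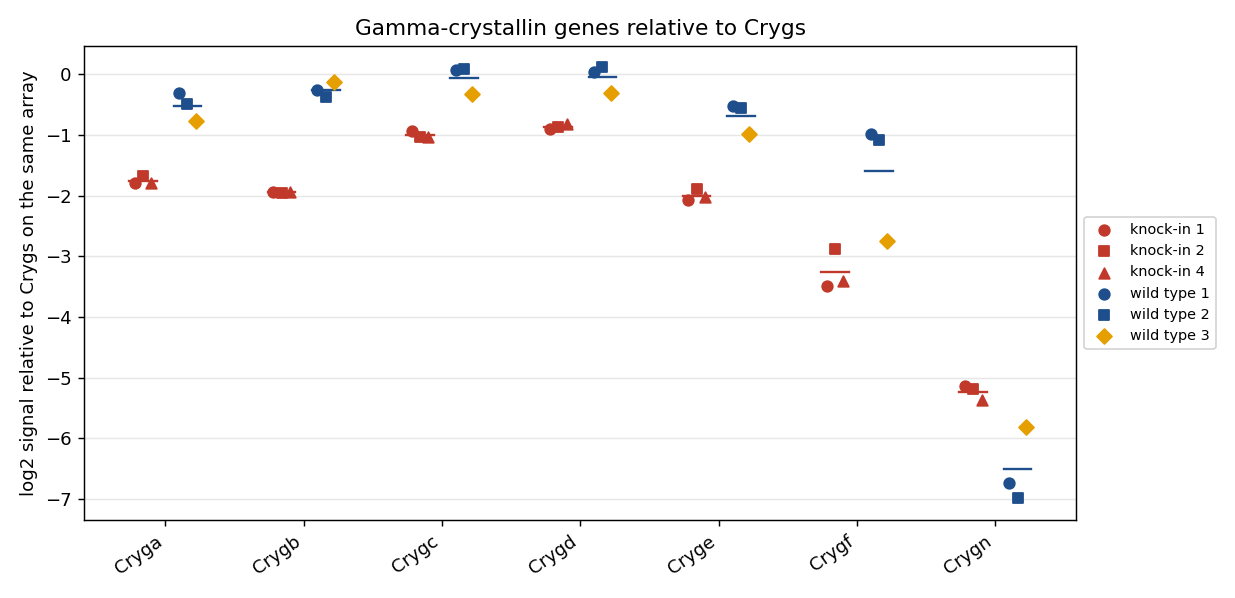
Log2 signal of each gamma-crystallin minus that of Crygs on the same array, 1 point per array and a bar at each group mean. For Cryga to Crygf all 3 knock-in points lie below all 3 wild type points, with wild type array 3 the lowest wild type point for all but Crygb, and for Crygn they lie above.

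The other crystallins did not share this pattern relative to Crygs as a group. Crybb1 and Cryba4, which encode subunits of the beta-crystallin oligomers, were lower relative to Crygs on every knock-in array, by -0.91 and -0.79. Cryab, the ubiquitous alpha-crystallin chaperone, was higher on every one, by 0.34 (exact permutation p = 0.1 for each of these 3, two-sided). The remaining 5 overlapped, with differences from -0.08 for Cryba2 to 0.43 for Cryaa, the lens-specific alpha-crystallin. Among these, Cryba1 was at 0.25 and Crybb3 at 0.09. Crybb2, the edited gene, was at 0.19 relative to Crygs. Over all genes the median difference relative to Crygs was 0.56, so Cryab stood below the median gene. By this measure 5.24% of all genes were lower on every knock-in array, and the share higher on every one was not counted. In the scaled fit, Crybb1 fell by 1.51 (SE 0.20, adjusted p = 0.00298). Cryba4 also passed, with a fall of 1.38 (SE 0.39, adjusted p = 0.0411), while Crybb2 was at -0.41 (adjusted p = 0.625), so 2 of 8 other crystallins passed, beside the 12.6% background, with a median of -0.46. Without wild type array 3 all 8 passed in the lower direction, and with scan as a random block Crybb1 alone did (adjusted p = 0.0435), beside 24.4% and 2.02% of all genes in this direction. Cryba4 also missed the threshold when any 1 of the other 5 arrays was left out (adjusted p of 0.0876 to 0.123). None of the 8 passed on unscaled signals or in the fit centred on Crygs, beside 1.14% and 0.72% of all genes lower. At an unadjusted p below 0.05, 2 were lower on unscaled signals and 0 in the centred fit. The Crybb2 probe reads the level of the transcript and cannot show the substitution.

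A list of transcription factors, cofactors and cell cycle inhibitors that act in the lens or its neighbouring tissues, several of them on crystallin genes, was also measured, chosen with earlier results of these data known. Of 28 tested, 8 were lower past the threshold and none higher (1 higher at an unadjusted p below 0.05), which is 28.6% beside 12.6% of all genes, and their median was -0.33 beside -0.04. With scan as a random block only Cdkn1c of the 28 passed (adjusted p = 0.0128), beside 2.02% of all genes. The 4 with the smallest adjusted p were Cdkn1c, Mitf, Foxe3 and Hsf4. Cdkn1c, the cell cycle inhibitor p57 that fibre cells switch on as they leave the cycle, fell by 1.71 (SE 0.15, adjusted p = 0.000536). Mitf, a melanocyte and eye pigment transcription factor, fell by 1.51 (SE 0.23, adjusted p = 0.00439), and Foxe3, a lens epithelium transcription factor, by 1.11 (SE 0.23, adjusted p = 0.0148). Hsf4, the heat shock factor of lens fibre cells that acts on gamma-crystallin promoters, fell by 0.81 (SE 0.19, adjusted p = 0.0231). Foxe3 was well above background on 2 of the 3 knock-in arrays. Maf, the factor whose recognition word was searched for above, was at 0.02 (adjusted p = 0.94), Sox1 fell by 0.71 (adjusted p = 0.0279), and Sox2, Prox1 and Pax6 were at -0.49, -0.56 and 0.38, with none of these 3 past the threshold. These last 5 are named after their values were seen.

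On unscaled signals or in the fit centred on Crygs none of these 28 genes passed, beside 1.14% and 0.72% of all genes in the lower direction. At an unadjusted p below 0.05, 2 were lower on unscaled signals and 0 in the centred fit. Leaving out 1 array, the count of 8 was 2 without wild type array 2, beside 6.94% of all genes, and 4 without knock-in array 1, beside 8.51%. It was 3 without knock-in array 2 or 4 or wild type array 1, beside 5.81%, 8.83% and 6.23% of all genes, so both the list's count and the share of all genes were lower without any 1 of these 5 arrays. Without wild type array 3 it was 8, beside 24.4%. Foxe3 missed the threshold without knock-in array 1 or 4 or wild type array 2 (adjusted p = 0.0537, 0.0518 and 0.0528). Hsf4 missed it without knock-in array 2 or 4 or wild type array 1 or 2 (adjusted p = 0.102, 0.0677, 0.0845 and 0.0679). Sox1 missed it without knock-in array 2 or wild type array 1 or 2 (adjusted p = 0.0951, 0.106 and 0.0953).

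RNA-binding proteins that act on lens transcripts after transcription included 2 of 6 that passed in the lower direction, beside 12.6% of all genes. Tdrd7, an RNA granule component whose loss causes cataract, fell by 1.35 (SE 0.19, adjusted p = 0.00323), and Celf1, a splicing and translation regulator, by 0.82 (SE 0.19, adjusted p = 0.0213). With scan as a random block they were at adjusted p = 0.0641 and 0.227, so none of the 6 passed, beside 2.02% of all genes, and 2 were lower at an unadjusted p below 0.05. Celf1 also missed the threshold without knock-in array 2 or wild type array 1 or 2 (adjusted p = 0.0706, 0.0769 and 0.0625). None of the 6 passed on unscaled signals or in the fit centred on Crygs, beside 1.14% and 0.72% of all genes lower. At an unadjusted p below 0.05, 1 was lower on unscaled signals and 0 in the centred fit.

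Of 22 other fibre cell genes tested, 9 were lower and 2 higher past the threshold, so 40.9% were lower beside 12.6% of all genes (13.3% were higher), with a median of -0.71. Birc7, a member of the inhibitor of apoptosis family, fell by 5.24 (SE 0.24, adjusted p = 5.64e-05). Lctl, a Klotho-like membrane protein of fibre cells, fell by 2.38 (SE 0.21, adjusted p = 0.000614), Lim2, the fibre membrane protein MP20, by 2.35 (SE 0.21, adjusted p = 0.000634) and Prx, the membrane scaffold periaxin, by 1.61 (SE 0.22, adjusted p = 0.00298). These 4 differences were between -5.26 and -1.49 without wild type array 3. The count of 9 was 14 without wild type array 3, beside 24.4% of all genes, and 7 without knock-in array 1 or 4, beside 8.51% and 8.83%. It was 6 without wild type array 2, beside 6.94%, and 5 without knock-in array 2 or wild type array 1, beside 5.81% and 6.23%. The 2 higher genes, named after their values were seen, were Tmod1, a cap of actin filaments, at 0.83 (adjusted p = 0.00754), and Cryl1, a sugar dehydrogenase, at 0.87 (adjusted p = 0.0467). Cryl1 missed the threshold when any 1 array other than wild type array 3 was left out (adjusted p of 0.0619 to 0.126). With scan as a random block 3 of the 22 were lower past the threshold, beside 2.02% of all genes, and none higher, with 2 higher at an unadjusted p below 0.05. The count of 9 lower was 2 on unscaled signals, beside 1.14% of all genes, and 2 in the fit centred on Crygs, beside 0.72%.

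**Figure D5:**
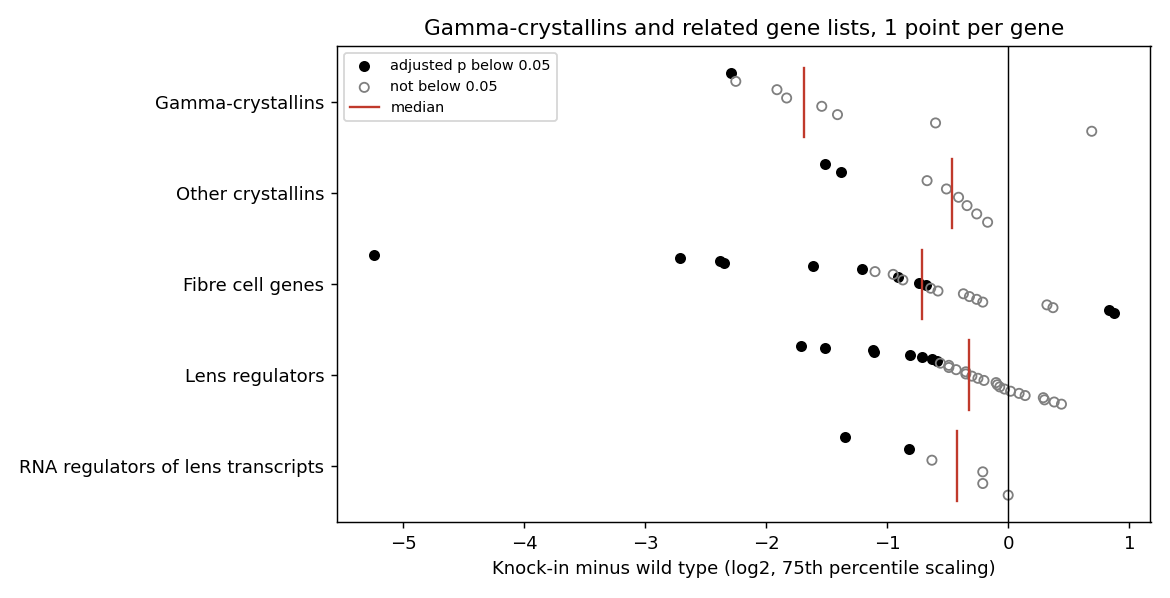
Knock-in minus wild type difference of every tested gene in the gamma-crystallins and in 4 related lists (log2, 75th percentile scaling, 1 point per gene, filled where adjusted p was below 0.05, red line at the list's median). The gamma-crystallins have the lowest median of the 5 lists at -1.68, with 1 of 8 filled, and Birc7 at -5.24 is the lowest point.

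Across the 6 arrays the near copies followed each other closely. Pearson r over the 15 pairs of Cryga to Crygf was 0.927 to 0.999 on scaled and 0.878 to 0.999 on unscaled signals. With Crygs the 6 genes had r of 0.783 to 0.953 on scaled signals, and with Crygn -0.459 to -0.124. Each r rests on 6 arrays that differ in genotype and in overall signal, and the near copies may share probe targets. Outside the crystallins, the 5 genes of 10636 with the highest r to the mean of the 6 on scaled signals were Tas2r109 and Gzmk (both 0.999) and Adat1, Gng11 and Ergic3 (0.997 each). On unscaled signals 4 of them were at 0.975 to 0.998 and Gng11 at 0.564. These 5 were picked for their likeness to Cryga to Crygf on the same 6 arrays. Lower values in the knock-in follow from that choice and add no support. Of the 5, Gzmk, a granzyme, passed the test, beside 12.6% of all genes in this direction. It fell by 1.52 (SE 0.46, adjusted p = 0.0486). That call was lost without any 1 of the arrays other than wild type array 3 (adjusted p of 0.119 to 0.138) and kept without that array (adjusted p = 0.000399). The other 4 differed by -1.75 to -0.48, with adjusted p of 0.0531 to 0.12.

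Markers of the tissue matched the label: all 10 lens markers were tested, 9 were well above background on all knock-in arrays and 10 on all wild type arrays. Their summed signal, as a multiple of the 75th percentile, was 1660 to 1840 on the knock-in arrays and 1100 to 4390 on the wild type arrays, lowest on wild type array 3. Among markers of neighbouring tissues, those of the retina moved with genotype and with 1 array. The 10 retina markers summed to 2.84 and 3.25 on knock-in arrays 1 and 2, 71.5 on knock-in array 4 and 0.662 to 0.852 on the wild type arrays, with 4 of them well above background on all knock-in arrays, 2 on all wild type arrays and 1 on no array. Without knock-in array 4 Crygb was at -2.28 (adjusted p = 0.0369). Crygn, also transcribed in retina, had a scaled level of 3.04 on knock-in array 4, the lowest of the 3 knock-in arrays. All 3 were above the wild type arrays, at 2.01 to 2.79. Sums over 6 pigmented ciliary body and iris markers were 1.13 to 1.66 against 0.553 to 1.34, over 6 corneal markers 311 to 336 against 289 to 513, over 8 blood markers 9.56 to 15.2 against 13.6 to 42.8, and over 5 endothelial markers 1.26 to 1.6 against 1.29 to 2.7. Clu and Aldh3a1 made up most of the corneal sum and Itgam most of the blood sum. Krt12, Krt14, Ptprc and Cd79a were not bright enough to be tested, so these sums do not give the amount of either tissue. These genes are named after their values were seen. The part of other cells in the gamma-crystallin differences was not tested.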

How the data were processed

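Per the labels, total lens RNA was labelled with Cy3 for single-colour Agilent arrays. The deposited files hold a scanner intensity for each spot, namely a processed signal that Agilent Feature Extraction 11.0.1.1 subtracted background from, per the file headers, with median spot and local background intensities. Version 9.1 appears in the submitters' processing notes. How arrays were scaled to each other is not stated there. Per the file headers the probe design refers to build mm9, and no probe coordinates are printed.

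Here the log2 processed signal minus the 75th percentile of the array's 43020 non-control spots was used. Spots marked as outliers were dropped, and those of 1 probe averaged. A probe was well above background where at least 50% of its spots were, and was kept if so on all arrays of at least 1 group (21076 of 39429 probes). Accessions without versions named 27234 probes through a RefSeq table of GRCm38.p6, and the probe with the highest mean represented a gene. limma 3.58.1 in R 4.3.3 (lmFit, eBayes, 4 residual degrees of freedom) was fitted to all genes and to all probes, with Benjamini-Hochberg adjustment over the whole table and a threshold of 0.05. The p-values rest on the spread of arrays within a group, which may be technical. Single values relative to Crygs or Crygn were tested by exact permutation. Promoter identity came from global alignment of the 250 bases before the start. The procedure was tested on simulated data.

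Members and gene lists (other crystallins, genes with a crystallin domain outside the lens group, lens transcription and cell cycle regulators, RNA regulators, fibre cell genes, cell markers) were chosen with earlier results of these data known. Named were all members, all crystallins, up to 4 genes per list with the smallest adjusted p (the 2 most abundant where fewer than 2 passed), and the 5 genes most like Cryga to Crygf. Alternatives covered scaling, background (normexp, offset 50, run on median intensities), filters, spot flags, probe choice, scan and replicate blocks and leaving out each array. Groups share replicate numbers 1 and 2; deviations of same-numbered arrays correlated at 0.168 and -0.216, so the numbers were not taken to pair them. Proteins were not analysed here.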

Additional observations from a re-analysis of the deposited data

How the results depend on the processing

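Each of the 8 genes kept its direction in all 19 alternatives, or in 18 for Crygs, which has no value in the fit centred on itself (151 values, of which 119 stayed on their side of the threshold, 29 passed it newly and 3 lost it), and the mean of Cryga to Crygf relative to Crygs stayed between -1.45 and -1.11. The 3 losses were those of Crygb on unscaled signals (adjusted p = 0.0698), with scan as a random block (0.0748, consensus correlation 0.56) and with arrays centred on Crygs, an alternative chosen after seeing the data (0.118). Counts below are members lower by gene, members lower by probe and all genes past the threshold in either direction. They were 1, 1 and 3312 in the report. They became 0, 0 and 292 without scaling, 0, 0 and 620 with scan as a random block, and 0, 0 and 496 centred on Crygs, where the median of all genes moved to 0.56 and 81.5% of calls were higher instead of 51.2%. Median scaling gave 6 and 8 members, with 40.9% of all calls higher, and quantile normalization 3 and 4. Of all genes, 12.9% and 12.8% were then lower. Normexp gave 3, 3 and 1433, and keeping only probes above background on all arrays 3 and 4, beside 5.6% and 11.5% of all genes lower. With no filter on dim probes 2002 genes passed. Scan day as a block, in which wild type array 3 has no weight, gave 7, 10 and 5566, beside 24% of all genes lower. The replicate block, which rests on arrays 1 and 2 of each group, gave 7, 10 and 5446, although the numbers do not pair the arrays. In that fit 24.3% of all genes were lower. Leaving out 1 array gave 1 to 7 members by gene, 1 to 10 by probe and 1538 to 5661 genes, the highest counts all without wild type array 3. The share of all genes lower then ran from 5.81% to 24.4%, also highest without wild type array 3. With 3 arrays a group, differences below the spread of the wild type arrays cannot be resolved. The planned comparison of protein sequences was not run.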

Other observations

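Genes that carry the crystallin fold but are not lens crystallins were measured as well. Of the 2 that were tested, Crybg1, a cytoskeleton-associated protein also known as Aim1, was higher in the knock-in by 1.20 (SE 0.33, adjusted p = 0.0379), and Crybg3 was at -0.28 (adjusted p = 0.385). Of all genes, 13.3% passed as higher. Crybg2, named after its values were seen, entered the limma test without wild type array 3. It was lower there, at -0.77 (adjusted p = 0.00873), beside 24.4% of all genes. Crybg1 missed the threshold with scan as a random block (adjusted p = 0.275) and without knock-in array 2 or 4 or wild type array 1 or 2 (adjusted p = 0.129, 0.112, 0.119 and 0.11).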
